A study of Arabidopsis thaliana with 8 samples.

Results

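*DFR*, AT4G14090, and *UF3GT* are 3 genes of the last, committed steps of anthocyanin synthesis in Arabidopsis, and were followed through constant red light in whole seedlings of the *fhy3-4* mutant, called *fhy3* here, and of its wild type, both in the No-0 ecotype. They were chosen by name with earlier results of these data known, so the shares of all probe sets given below beside them are descriptions. Each was read from the only probe set that the platform's table pairs with it. Thus 3 of the 22810 probe sets on the Affymetrix ATH1 array are described. All 3 passed the filter on low signals, which left 17660 tested probe sets. Seedlings of both genotypes were grown on a sucrose medium, entrained for 7 days in cycles of 12 h of mixed red and blue light and 12 h of darkness, and then moved to constant red light. About 100 seedlings were pooled for each sample, and 1 array was made of each genotype at 24, 32, 40, and 48 h, so that 8 arrays were analysed and no genotype has a replicate at any time. The labels do not describe the *fhy3-4* lesion. The *FHY3* transcript was not analysed here, so the genotype labels were not checked on the mutated gene.

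Anthocyanins are red to purple flavonoid pigments stored in the vacuole. Their synthesis branches from the flavonoid pathway at dihydroflavonol reductase, and the coloured anthocyanidins that follow are made stable by the addition of sugars and acyl groups. In Arabidopsis seedlings the late genes are known to be switched on together by complexes of MYB, bHLH, and WD40 proteins, and light, sucrose, and several stresses are known to raise the pigment. *FHY3* encodes a transcription factor of phytochrome A signalling that also acts on the circadian clock. The 24 and 48 h samples fall at subjective dawn, 1 day apart, the 32 h sample in the subjective afternoon, and the 40 h sample in the subjective night.

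*DFR* (AT5G42800, probe set 249215_at) encodes dihydroflavonol reductase, which takes dihydroflavonols into the anthocyanin branch. Its array signal, a linear value scaled between arrays, read 185, 163, 732, and 135 on the *fhy3* arrays of 24, 32, 40, and 48 h, against 107, 69.7, 130, and 229 on those of wild type. The 40 h array of *fhy3* stood 3.20-fold above the next highest of the 8 arrays, while the other 7 arrays of the genotypes overlapped. Relative to the other tested probe sets of the same array, *DFR* lay above 82.9% of them at 40 h in *fhy3* and above 36.8% at 40 h in wild type.

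AT4G14090 (probe set 245624_at) encodes the anthocyanin 5-O-glucosyltransferase, which adds glucose to the pigment. In the same order of times its signals were 102, 86.7, 255, and 78.7 in *fhy3*, against 56.0, 20.2, 55.9, and 149 in wild type. The lowest of these, at 32 h in wild type, lay just under 20.7, the value to which low signals were raised before log2 was taken. Here too the 40 h array of *fhy3* was the highest, though by 1.71-fold over the 48 h array of wild type, and the genotypes overlapped otherwise.

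*UF3GT* (AT5G54060, probe set 248185_at) encodes a glycosyltransferase that extends the sugar at position 3 of the pigment. In *fhy3* its signals were 50.1, 36.8, 257, and 51.2 at 24, 32, 40, and 48 h, against 43.6, 58.2, 45.8, and 94.4 in wild type. Its 40 h signal in *fhy3* was 2.73-fold above the next highest array. At 32 h *UF3GT* had its lowest signal of the 8 arrays in *fhy3*, whereas *DFR* and AT4G14090 had theirs in wild type.

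**Figure D1:**
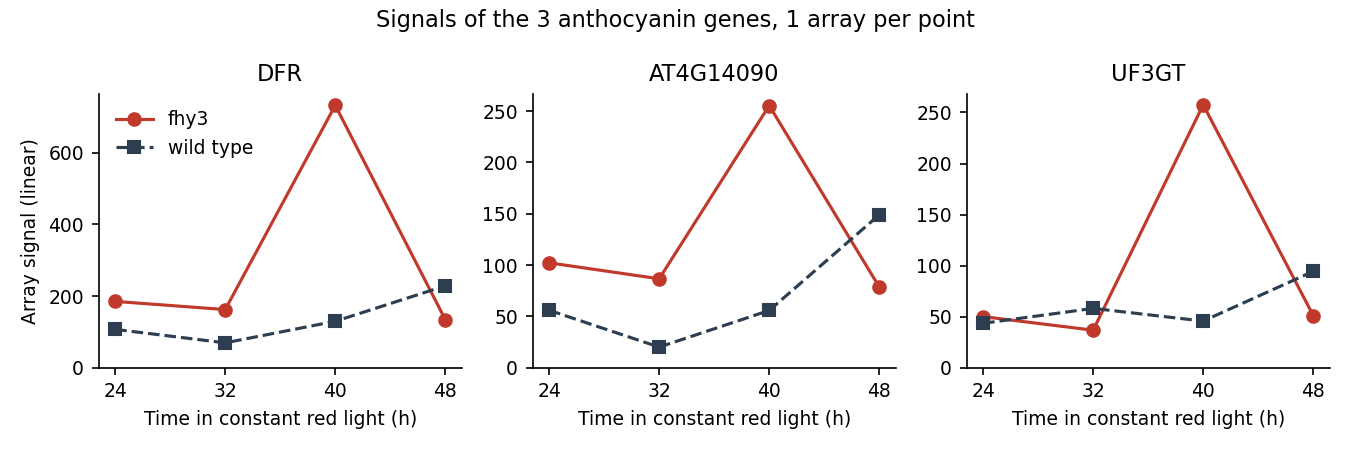
Linear array signal (vertical axis, from 0, with its own scale in each panel) against hours in constant red light for *DFR*, AT4G14090, and *UF3GT*, with *fhy3* as red circles and wild type as dark squares. Each point is 1 array and there are no error bars; in each panel the *fhy3* point at 40 h is the highest, at 732, 255, and 257.

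The genes were therefore highest at 40 h in *fhy3* and at 48 h in wild type, for 3 of 3 genes in each genotype, as the plot of signal against time shows. Among all tested probe sets, 37.9% were highest at 40 h in *fhy3*, 24.1% were highest at 48 h in wild type, and 9.56% had both. The 40 h array of *fhy3* was the highest of the 8 arrays for 21.4% of tested probe sets, and for 2.71% it was so by at least 1.5-fold, as it was for each of the 3 genes. That array also had the highest mean signal, 438.8 against 402.4 to 417.5 for the other 7, and the median deviation of its log2 signals from the other *fhy3* arrays was 0.239, against 0.134 to 0.159 for those. After quantile normalization, which gives all arrays the same distribution, the log2 difference between *fhy3* and wild type at 40 h was 2.40 for *DFR*, 2.09 for AT4G14090, and 2.30 for *UF3GT*. The pattern of peak times was described after the values were seen.

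The first comparison asks how far the signals of *fhy3* and wild type differed at each time. At 40 h *DFR* was 5.64-fold, AT4G14090 4.57-fold, and *UF3GT* 5.62-fold of the wild type signal in *fhy3*, which makes 3 of 3 genes with a ratio of at least 4, where 1.08% of tested probe sets reached this ratio and 5.77% a ratio of 2. Larger log2 differences at 40 h were found for 92 probe sets in the case of *DFR*, 93 for *UF3GT*, and 146 for AT4G14090, of the 17660 tested. At 32 h the 3 genes parted. AT4G14090 had a log2 difference of 2.07 and *DFR* one of 1.22, while *UF3GT* had one of −0.66, a ratio of 0.633. Part of this rests on low signals, since with the floor raised to 20% of the mean of all probe sets the difference was 0.07 for AT4G14090 and 0.0 for *UF3GT*, against 0.97 for *DFR*. The 32 h array of wild type was also the one that stood furthest from the others of its genotype, with a median log2 deviation of 0.261 against 0.167 to 0.193. At that time 6.05% of tested probe sets were at least 2-fold higher in *fhy3* and 2.64% at least 2-fold lower.

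At subjective dawn the difference ran opposite ways on the 2 days. At 24 h the ratio of *fhy3* to wild type was 1.73 for *DFR*, 1.82 for AT4G14090, and 1.15 for *UF3GT*. A larger difference at 24 h was found for 2.56%, 2.12%, and 22.9% of tested probe sets in turn, so that of *UF3GT* was not unusual. At 48 h the ratio was 0.588, 0.528, and 0.542 in the same order, so that 3 of 3 genes had the lower signal in *fhy3*. Differences of this size at 48 h were near the lower end of the array, since 97.7% of tested probe sets had a larger value than *DFR*, 98.7% than AT4G14090, and 98.5% than *UF3GT*. A signal at least 2-fold higher in *fhy3* at 40 h together with a lower one at 48 h, which all 3 genes had, was found in 1.38% of tested probe sets. This pair of conditions follows the pattern that the 3 genes showed, so their having it is no test, and the share is only a description.

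**Figure D2:**
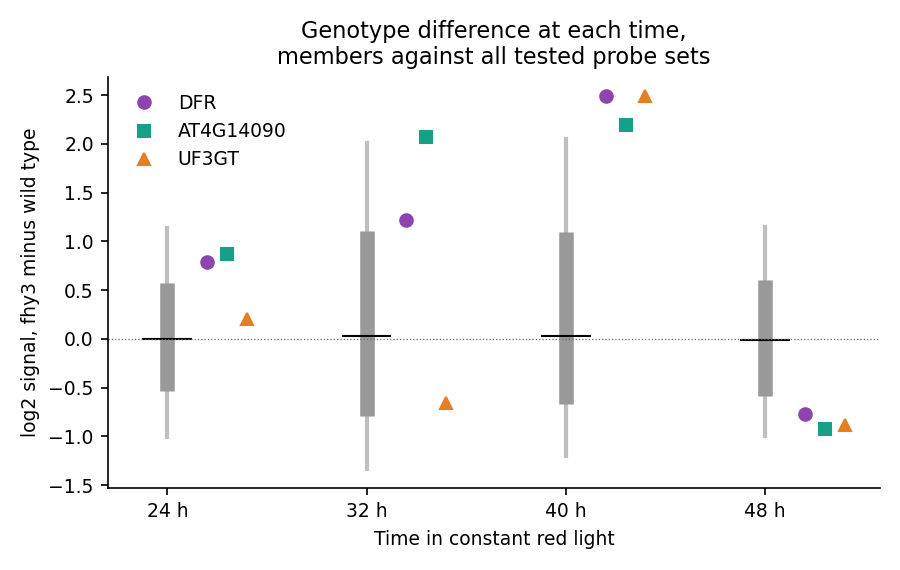
Log2 signal in *fhy3* minus that in wild type (vertical axis) at each time in red light, 1 array of each genotype per time, for *DFR* (circles), AT4G14090 (squares), and *UF3GT* (triangles). The thick grey bars span the 5th to 95th percentile of all 17660 tested probe sets, the thin bars the 1st to 99th, and the black lines are their medians; at 40 h the 3 genes lie above the 99th percentile of 2.05, and at 48 h below the 5th percentile of −0.586.

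The same arrays were then compared across the 2 dawns within a genotype, the only repeat of a circadian time. In *fhy3* the signal at 48 h was 0.726 of that at 24 h for *DFR*, 0.77 for AT4G14090, and 1.02 for *UF3GT*. In wild type it was 2.13-fold for *DFR*, 2.66-fold for AT4G14090, and 2.17-fold for *UF3GT*. An increase of at least 2-fold between the dawns of wild type was shown by 1.59% of tested probe sets, and by 3 of 3 of these genes. In *fhy3* such an increase was shown by 0.895% of tested probe sets and by 0 of these genes.

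**Figure D3:**
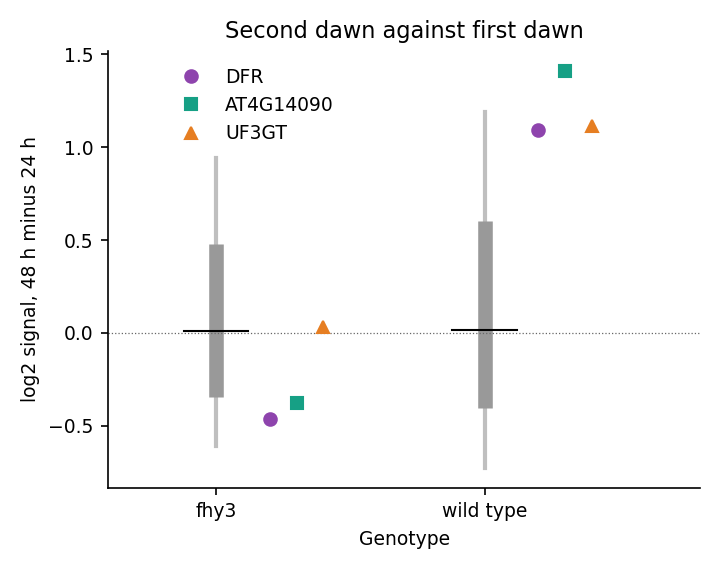
Log2 signal at 48 h minus that at 24 h (vertical axis) in *fhy3* and in wild type for the 3 genes, with the same grey bars for all tested probe sets (5th to 95th percentile thick, 1st to 99th thin, median in black). In *fhy3* the genes lie at −0.46, −0.38, and 0.03, and in wild type at 1.09, 1.41, and 1.11, where the 95th percentile is 0.603.

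The spread between these dawns is also the only measure of error for the genotype comparison, so it bears on every test. A linear model was fitted in limma to log2 signals with a mean for each circadian phase in each genotype, which leaves 2 residual degrees of freedom, from 24 against 48 h. The p-values thus measure the spread between those arrays and not between biological replicates. The residual SD was 0.593 for *DFR*, 0.730 for AT4G14090, and 0.558 for *UF3GT* on the log2 scale, against a median of 0.129 over all tested probe sets. Larger residual SDs were found for 1.12 to 2.38% of tested probe sets.

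With that error, none of the 3 genes passed an adjusted p under 0.05 from limma in any comparison of the genotypes. For the mean level over the 3 circadian phases, the log2 difference was 1.24 for *DFR* (SE 0.32, 95% interval 0.36 to 2.13, adjusted p = 0.0924) and 1.41 for AT4G14090 (SE 0.39, 95% interval 0.33 to 2.49, adjusted p = 0.104). It was 0.50 for *UF3GT* (SE 0.30, 95% interval −0.34 to 1.33, adjusted p = 0.321). An adjusted p under 0.05 was reached by 6.26% of tested probe sets and by 0 of 3 genes, while an unadjusted p under 0.05 with a higher level in *fhy3* was reached by 18.0% and by 2 of 3. These means rest in good part on the 40 h arrays, and that of AT4G14090 about as much on the 32 h arrays. In a fit that set the arrays of each time against each other, the log2 difference was 0.94 for *DFR*, 1.05 for AT4G14090, and 0.29 for *UF3GT* with all 4 times. Without the 40 h arrays it was 0.41, 0.67, and −0.45 in the same order, and without the 32 h arrays 0.84, 0.71, and 0.60. The 32 h wild type signal of AT4G14090 lay just under the floor.

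At 40 h the fitted log2 difference was 2.50 for *DFR* (SE 0.60, 95% interval 0.82 to 4.17, adjusted p = 0.151 from limma). It was 2.19 for AT4G14090 (SE 0.74, 95% interval 0.14 to 4.24, adjusted p = 0.215) and 2.49 for *UF3GT* (SE 0.57, 95% interval 0.91 to 4.07, adjusted p = 0.142). With an unadjusted p under 0.05, 3 of 3 genes were higher in *fhy3* at 40 h, and so were 13.1% of tested probe sets, while 4 probe sets or 0.0227% had an adjusted p under 0.05. At 32 h the adjusted p was 0.184 for AT4G14090, 0.282 for *DFR*, and 0.506 for *UF3GT*, and no probe set passed, though 26.9% had an unadjusted p under 0.05. With the dawns pooled, the log2 difference was 0.01 for *DFR* (95% interval −1.17 to 1.20), −0.03 for AT4G14090 (−1.48 to 1.42), and −0.34 for *UF3GT* (−1.46 to 0.78). These intervals hold differences of more than 2-fold, and 0 of 3 genes passed, as did 0.0736% of tested probe sets.

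**Figure D4:**
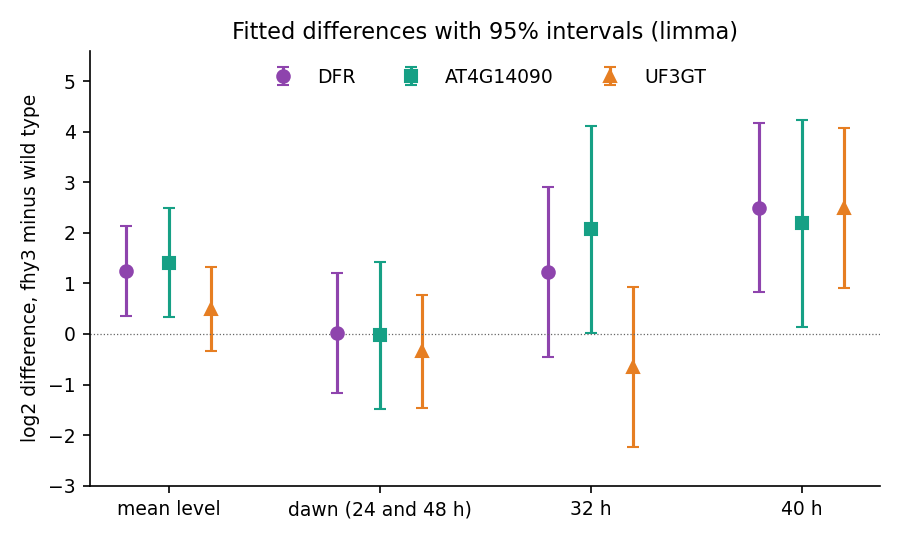
Log2 difference between *fhy3* and wild type (vertical axis) from limma for the mean level, for dawn (24 and 48 h together), for 32 h, and for 40 h, for the 3 genes, with bars that span the 95% interval. The intervals at 40 h lie above 0, from 0.82 for *DFR*, 0.14 for AT4G14090, and 0.91 for *UF3GT*, before adjustment for the number of probe sets tested; those at dawn span 0.

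Rhythm was then examined within each genotype, with criteria adapted from those of the study's methods. The p-value was taken as two-sided, and the methods' other route, by the size of the change in signal, was not used, as its limit of 103375.7 exceeds every deposited signal (at most 15042.5). Each gene's 4 signals were set against 24 h sine waves at 24 phases. The best wave had to reach a p of 0.01, or an r of 0.99 over 4 points, and the ratio of the signals closest to its peak and trough had to be that of a wave with a 1.5-fold range or more. In *fhy3*, 3 of 3 genes met both criteria, with r of 0.997 for *DFR*, 0.993 for AT4G14090, and 0.998 for *UF3GT*, each at phase 16, which is the phase of the 40 h array. In wild type 0 of 3 did, with r of 0.679 at phase 22 for *DFR*, 0.724 at phase 22 for AT4G14090, and 0.470 at phase 2 for *UF3GT*. The 4 times hold only 3 circadian phases, which a wave of free mean, size, and phase can fit almost exactly. The r therefore fell short of a perfect fit almost only by the gap between 24 and 48 h, relative to the range of the signals. The calls thus largely restate the changes between the dawns given above and do not test the shape of a wave. Over all tested probe sets, 10.7% were called rhythmic in *fhy3* and 12.5% in wild type. A high value on the 40 h array alone is enough for phase 16 in *fhy3*, and with the correlation taken on log2 signals only *UF3GT* met the criteria, at an r of 0.992, against 0.985 for *DFR* and 0.980 for AT4G14090. With a p of 0.05 the calls of the 3 genes were the same, while the share of tested probe sets called was 24.5% for *fhy3* and 27.8% for wild type arrays.

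The difference in rhythm between the genotypes was tested in limma by the phase terms together. The adjusted p was 0.292 for *DFR*, 0.337 for AT4G14090, and 0.231 for *UF3GT*. None of the tested probe sets passed after adjustment. Before it 18.5% did, with *UF3GT* among them (unadjusted p = 0.0272), while *DFR* and AT4G14090 were at 0.0657 and 0.101. The change at 40 h against dawn was 2.21 in *fhy3* and −0.27 in wild type for *DFR*, 1.51 and −0.71 for AT4G14090, and 2.35 and −0.49 for *UF3GT*, all on the log2 scale. At 40 h 0.736% of tested probe sets passed an adjusted p under 0.05 against dawn in *fhy3* and 0.017% in wild type, and 0 of 3 genes in either. At 32 h, where no probe set passed in either genotype, the change against dawn in wild type was −2.14 for AT4G14090 (SE 0.64, adjusted p = 0.135 from limma), −1.17 for *DFR*, and −0.14 for *UF3GT*. In *fhy3* it was −0.05, 0.04, and −0.46 for the same genes, and the difference between genotypes in this change had adjusted p-values of 0.364, 0.488, and 0.858. With the higher floor the change in wild type was −0.42 for AT4G14090 and −0.92 for *DFR*, and the difference between genotypes in it 0.34 and 0.96. At 40 h, the difference between these changes was 2.48 for *DFR* (SE 0.74), 2.22 for AT4G14090 (SE 0.91), and 2.83 for *UF3GT* (SE 0.70), with adjusted p-values from limma of 0.318, 0.391, and 0.273. After adjustment 0.017% of tested probe sets passed for this difference. Before it, 8.68% had a higher change in *fhy3*, as did *DFR* and *UF3GT*, or 2 of 3 genes.

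Across the 8 arrays *DFR* and AT4G14090 followed each other closely, with a Pearson r of 0.931 and a Spearman rho of 0.976 on log2 signals. Without the 40 h array of *fhy3* their r was 0.978. *UF3GT* had an r of 0.837 with *DFR*, and 0.302 without that array, so that its likeness to *DFR* lay mostly in this 1 array. With AT4G14090 its r was 0.653, and 0.260 without the array. The Spearman rho of *UF3GT* over the 8 arrays was 0.452 with *DFR* and 0.429 with AT4G14090. These are descriptions over 8 arrays that share a scaling, with no test made.

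Other genes of the pathway were taken from lists of the phenylpropanoid, flavonoid, and anthocyanin genes and their regulators. Their values are shown array by array in the heat map. Of 66 listed genes, 13 could be named on the array and 11 passed the filter on low signals, 8 of them besides the 3 described. None passed an adjusted p under 0.05 from limma in the mean level or at 40 h. The median log2 difference of the 8 was 0.45 in the mean level and 0.44 at 40 h, where the medians of all tested probe sets were 0.02 and 0.03. With the 3 included it was 0.50 and 0.82, so that they account for much of the value at 40 h. At 40 h 8 of 8 had the higher value in *fhy3*, as did 53.4% of tested probe sets, though not all by a clear margin. The smallest difference, 0.01, was that of *HYH*, whose wild type signal lay under the floor and whose *fhy3* signal lay barely above it. That of *UGT80B1*, 0.04, was near the median of all tested probe sets. Of the 8, 1 had its highest signal of the 8 arrays at 40 h in *fhy3*, against the 21.4% of all tested probe sets given above. The *MYB75*, *MYB90*, and *TT8* activators, *LDOX*, and chalcone synthase were not analysed here.

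Of the late anthocyanin genes besides the 3, *AT5MAT*, which encodes the malonyltransferase that acts on the glucose placed by the AT4G14090 enzyme, read 32.8, 30.0, 113, and 25.1 over the 4 times in *fhy3*, against 20.7, 21.6, 36.3, and 60.2 in wild type. It was thus highest at 40 h in *fhy3* and at 48 h in wild type, as the 3 genes were, with a log2 difference at 40 h of 1.64 (SE 0.80, adjusted p = 0.325 from limma). Its wild type signals at 24 and 32 h lay only just above the floor of 20.7. *UGT78D2*, a glucosyltransferase that acts on position 3 of anthocyanidins and flavonols alike, was also highest at these times in each genotype, but its 40 h signal in *fhy3* lay below the 48 h signal in wild type. Its signals were 218, 236, 284, and 262 in *fhy3*, against 267, 103, 161, and 338 in wild type, and its log2 difference in mean level was 0.56 (SE 0.13, adjusted p = 0.0792 from limma).

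Among the genes upstream or of the flavonol side, *CHIL*, which encodes a chalcone isomerase-like protein of early flavonoid synthesis, had 530, 388, 465, and 596 in *fhy3*, against 431, 195, 238, and 575 in wild type. It was lowest at 32 h in both genotypes, and its log2 difference in mean level was 0.71 (SE 0.14, adjusted p = 0.0619 from limma). *UGT78D1*, a flavonol rhamnosyltransferase gene, had 156, 79.2, 283, and 163 in *fhy3*, against 178, 24.3, 221, and 309 in wild type. AT1G06000, which encodes the flavonol rhamnosyltransferase of position 7, had 269, 201, 310, and 253 in *fhy3*, against 225, 123, 216, and 334 in wild type. Both of these were lowest at 32 h and highest at 48 h in wild type, and for both the 40 h signal in *fhy3* lay below the highest signal of wild type.

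Of the regulators *HYH*, a bZIP relative of *HY5*, read 19.6, 26.7, 20.8, and 17.9 in *fhy3*, against 117, 16.6, 9.83, and 70.7 in wild type. Its dawn signals stood clear of the floor only in wild type, with a log2 difference at dawn of −2.14 and an adjusted p of 0.155 from limma. AT1G23390, an F-box gene whose protein is known to mark chalcone synthase for breakdown, had 693, 937, 843, and 554 in *fhy3*, against 1069, 879, 751, and 623 in wild type. *UGT80B1*, a sterol glucosyltransferase gene of the *transparent testa* group, lay between 236.5 and 253.3 in *fhy3* and between 222 and 299 in wild type. *BAN*, which turns anthocyanidins to the tannins of the seed coat, and *UGT78D3* did not pass the filter on low signals, with signals of at most 25.3 and 15.1.

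**Figure D5:**
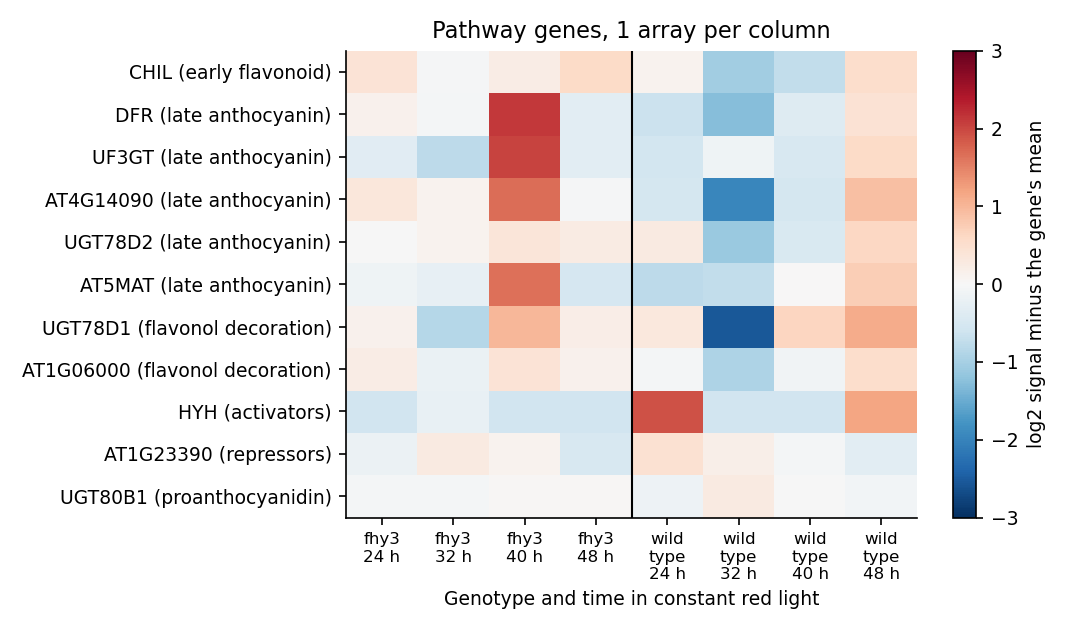
Log2 signal of the 11 tested pathway genes minus each gene's own mean over the 8 arrays (colour), with signals under 20.7 raised to that value, 1 column per array, *fhy3* to the left of wild type and time in red light running from 24 to 48 h in each. *DFR*, *UF3GT*, AT4G14090, and *AT5MAT* are each at their darkest red at 40 h in *fhy3*, the 4 genes with their highest signal of the 8 arrays there.

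The genes with the most similar pattern to the mean of the 3, of 10063 named and tested probe sets, were *GSTL3*, a glutathione transferase gene, AT5G53330, AT2G44420, AT1G06650, and AT2G24390, with Pearson r of 0.984 to 0.964 over the 8 arrays. Without the 40 h array of *fhy3* their r was 0.889 to 0.982. *GSTL3* had signals of 1127.3, 1114.7, 1319.0, and 1119.8 in *fhy3*, against 1042.9, 1018.1, 1069.1, and 1170.7 in wild type, and so moved with the 3 genes over a far narrower range. For *UF3GT* singly, the closest were AT4G18250, the *SRC2* gene, and *BGLU27*, a beta-glucosidase gene. *BGLU27* had 14.4, 13.3, 112, and 19.1 in *fhy3*, against 13.8, 7.71, 13.8, and 30.4 in wild type. It passed the filter on low signals only through its 40 h signal in *fhy3*. Apart from that signal and the 48 h one of wild type, its values lay under 20.7 and were raised to it. Its likeness to *UF3GT* therefore rests on those arrays, with an r of 0.962, and 0.878 without the 40 h array of *fhy3*. Of the pathway genes, *AT5MAT* had an r of 0.951 with the mean of the 3, and AT1G06000 one of 0.768. Without the 40 h array of *fhy3* the order was reversed, at 0.851 for *AT5MAT* and 0.92 for AT1G06000.

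Since whole seedlings were used, fewer cells of a type and less RNA per cell cannot be told apart, and neither can a change in all cells from one in a few. Of the shoot markers 3 of 8 were named and tested, and their summed signal was 23021.6 to 24347.5 in *fhy3*, against 21798.1 to 26449.7 in wild type. Of the root markers 2 of 9 were, with sums of 6817.6 to 9884.5 in *fhy3*, the highest at 40 h, and 5705.0 to 7334.3 in wild type. The root hair expansin gene *EXPA7* had 78.7, 154, 148, and 128 in *fhy3*, against 38.3, 38.9, 18.5, and 52.8 in wild type, and passed the test of the mean level (log2 difference 1.99, SE 0.23, adjusted p = 0.0373 from limma). *PYK10*, a beta-glucosidase gene of roots and the other root marker, made up nearly all of the sum. It had 6738.9, 7434.2, 9736.6, and 7195.7 in *fhy3*, against 5674.1, 5666.1, 7198.4, and 7281.5 in wild type. The part of root or shoot tissue in the anthocyanin gene signals was not tested. No marker of the epidermis, and none of the seed other than *BAN*, could be named.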

How the data were processed

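The deposited values are intensity on a linear scale, which the authors had scaled between arrays. MAS5 is named in the submitters' processing notes and D-chip in the methods, and which of them made these values is not given in the sources used here. Probe sets were named through the platform table, matched to RefSeq TAIR10.1 genes by gene ID or symbol (13513 with 1 gene, 503 with several, 8730 unnamed). Controls (64), organelle genes (87), probe sets of several genes, and 5 unmatched ones were left out, as were 4491 whose mean signals in both genotypes stayed under 5% of the array-wide mean of 413.5. Unnamed probe sets were kept. Signals under 20.7 were set to that value before log2. limma 3.58.1 in R 4.3.3 was used with Benjamini-Hochberg adjustment over 17660 probe sets, with 2.01 prior degrees of freedom. The fit was also run on simulated signals of independent normal noise around a flat mean, with known differences added. Only the size of the estimates was checked against a limit, so the run does not show the share of false calls here. Within a genotype the 4 arrays are not replicates, and their number limits precision.

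The members and lists were chosen with earlier results of these data known. The genes named are the 3 members, list genes with a probe set, and the 5 most similar named genes by Pearson correlation, of which *GSTL3* and *BGLU27* are given with values. Alternatives concerned the floor, a pseudocount, the filter, unnamed probe sets, scaling, time as a block, and leaving out a time. No sequence was read, as no sequence table was used here.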

Additional observations from a re-analysis of the deposited data

Results flagged for a closer look

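The sign of the genotype difference turned between the night and the second dawn. For *DFR* the log2 difference between *fhy3* and wild type was 2.50 at 40 h and −0.77 at 48 h, for AT4G14090 it was 2.19 and −0.92, and for *UF3GT* 2.49 and −0.88. For *DFR* and AT4G14090 the change between the dawns also ran opposite ways, with 48 h minus 24 h on the log2 scale at −0.46 for *DFR* in *fhy3* against 1.09 in wild type, and at −0.38 for AT4G14090 in *fhy3* against 1.41 in wild type. Each of these values sets 1 array against 1 array. The 40 h differences did not pass limma's test, as given above. The 48 h differences, the changes between the dawns, and the turn of sign between 40 and 48 h were not tested.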

How the results depend on the processing

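Of 231 values of the 3 genes under the alternatives, 224 kept their side of the threshold and did not turn in direction. These include the tests and calls of rhythm, which have no direction. They also include 0.0 for *UF3GT* in the difference at 32 h and in the change at 32 h against dawn in *fhy3*, with the floor at 20% of the mean. With 20.7 added as a pseudocount in place of the floor, the mean level of *DFR* passed, with a log2 difference of 1.11 and an adjusted p = 0.0413 from limma (0.0413 to 0.604 over its alternatives), and so did the change at 40 h against dawn in *fhy3* for *UF3GT*, at 1.96. With the correlation on log2 signals the rhythm calls in *fhy3* were lost for *DFR* (r of 0.985) and AT4G14090 (r of 0.980). The direction turned for *UF3GT* in the mean level without 40 h, where leaving out 1 time gave −0.45 to 0.68, for *DFR* in the change at 32 h against dawn in *fhy3* under quantile normalization (−0.001), and for *UF3GT* in the difference between genotypes in that change with the floor at 20% of the mean (0.10). Leaving out 1 time gave 0.415 to 1.502 for *DFR* and 0.67 to 1.71 for AT4G14090, whose mean level difference was 0.47 with the higher floor, against 1.41. At 40 h the log2 differences ranged over the alternatives from 2.32 to 2.50 for *DFR*, 1.63 to 2.19 for AT4G14090, and 1.64 to 2.49 for *UF3GT*, with adjusted p-values of 0.0607 to 0.397.

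The counts of all probe sets called moved more. For the mean level 1106 were called, against 2351 with the pseudocount, 579 among named probe sets only, 108 with time as a block, and 5 to 11 when 1 time was left out as well. At 40 h 4 were called, against 465 with the higher floor, 386 with the pseudocount, 398 with no filter, and 11 with arrays scaled to the same median. At 32 h it was 0 against 640, 828, 803, and, among named probe sets only, 2. For the difference in rhythm it was 0 against 711 with the higher floor, 14 with the pseudocount, and 706 with no filter. At dawn 13 were called, against 2 with the higher floor, 105 with the pseudocount, 1 with no filter, and 5 among named probe sets only. For the change at 40 h against dawn in *fhy3* 130 were called, against 462, 890, and 304 with the higher floor, the pseudocount, and no filter, 29 among named probe sets, and 41 and 196 with quantile and median scaling. For the difference between genotypes in that change it was 3 against 348, 33, 266, and 0 in the first 4 of these. The cause was not tested. Each gene has 1 probe set, so another could not be tried, and the signals of *UF3GT* and AT4G14090 near the floor limit their folds. Samples could be paired by time, and that fit (time as a block) gave mean level differences of 0.94 for *DFR*, 1.05 for AT4G14090, and 0.29 for *UF3GT*, with adjusted p-values of 0.345, 0.327, and 0.804 from limma. The replicate label is 1 on every sample, so it gives no pairs.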
